A study of Mus musculus with 6 samples.

Results

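Peroxiredoxins are enzymes that remove peroxides with cysteine residues. Thioredoxin and its reductase reduce those cysteines again with electrons from NADPH, and sulfiredoxin repairs overoxidised ones. The mRNAs of 10 genes of this system (Txn1, Txnrd1, Srxn1, Prdx1 to Prdx6 and the thioredoxin inhibitor Txnip) were studied. Their values were taken by symbol from a table of 21912 mouse gene symbols. The list itself was chosen with earlier results of these data known. All 10 were among the 10390 genes expressed highly enough to be tested. RNA came from cultured macrophages in 2 groups of 3 libraries, M 1 to 3 and control 1 to 3. The series concerns foam cells, lipid-filled macrophages made with oxidised low-density lipoprotein (ox-LDL). Only the C libraries carry the word control and M is nowhere explained, so reading M as the ox-LDL group rests on this alone. One extraction protocol, worded alike for all 6 libraries, names ox-LDL without setting the control libraries apart. The sources used here give no dose, time, mouse strain or origin of the macrophages. The labels do not state whether a replicate was a culture of its own, so a p-value reflects library-to-library spread that could be technical.

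Peroxiredoxins are abundant peroxidases whose reactive cysteine is oxidised by hydrogen peroxide or by lipid hydroperoxides. Thioredoxin reduces most of them again, and thioredoxin reductase recharges thioredoxin from NADPH. Sulfiredoxin rescues some forms, Prdx1 among them, whose cysteine has been overoxidised. Prdx1, Prdx2 and Prdx6 work in the cytosol, Prdx3 in mitochondria and Prdx4 in the endoplasmic reticulum, whereas Prdx5 is found in mitochondria, peroxisomes and the cytosol. In macrophages several of these genes are known targets of the transcription factor NRF2, which binds antioxidant response elements.

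The stretch just upstream of the transcription start is shown for the 3 genes with the highest fold changes and for Txnip, whose promoter carries a known glucose-responsive element. The sequences are the 250 bases before the start in the RefSeq annotation of GRCm38.p6, written 5′ to 3′ along the gene, and 9 of the 10 genes had an entry (11 starts in all; Prdx6 had none). Srxn1 lies on the plus strand at chr2:152105274-152105523, Prdx1 on the plus strand at chr4:116685349-116685598, Txnrd1 (the second of its 3 listed starts) on the plus strand at chr10:82858956-82859205 and Txnip on the plus strand at chr3:96557707-96557956. Capitals mark matches in either strand to the motifs named after the sequences.
Srxn1: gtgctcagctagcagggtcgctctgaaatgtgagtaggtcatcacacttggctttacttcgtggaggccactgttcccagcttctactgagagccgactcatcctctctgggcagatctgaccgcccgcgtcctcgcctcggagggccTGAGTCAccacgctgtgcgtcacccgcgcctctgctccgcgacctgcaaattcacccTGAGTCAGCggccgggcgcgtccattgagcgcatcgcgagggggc
Prdx1: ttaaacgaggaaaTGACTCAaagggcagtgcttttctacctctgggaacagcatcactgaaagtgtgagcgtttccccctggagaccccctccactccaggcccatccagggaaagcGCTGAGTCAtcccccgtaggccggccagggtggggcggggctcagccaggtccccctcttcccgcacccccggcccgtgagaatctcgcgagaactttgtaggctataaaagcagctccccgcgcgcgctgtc
Txnrd1: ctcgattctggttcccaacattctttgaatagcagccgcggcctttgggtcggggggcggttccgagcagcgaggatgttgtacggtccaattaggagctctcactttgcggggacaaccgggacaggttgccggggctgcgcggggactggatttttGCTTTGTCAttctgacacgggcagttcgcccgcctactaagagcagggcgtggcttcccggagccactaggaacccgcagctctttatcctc
Txnip: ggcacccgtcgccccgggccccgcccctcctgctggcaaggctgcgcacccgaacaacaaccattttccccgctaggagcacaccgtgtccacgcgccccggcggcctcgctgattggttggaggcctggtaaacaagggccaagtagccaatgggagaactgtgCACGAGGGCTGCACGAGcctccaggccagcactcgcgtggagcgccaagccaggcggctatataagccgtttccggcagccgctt

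Both Srxn1 and Prdx1 held 2 matches to TGANTCA, the letters of an AP-1 site, and 0.338% of the 32851 promoters in the table held 2 or more. One match in each was extended to TGANTCAGC, an AP-1 site followed by GC, which was found in 1.02% of promoters. In Srxn1 it began 45 bases before the start on the gene's own strand, and in Prdx1 it lay 133 bases before the start on the other strand. The core of the antioxidant response element, TGACNNNGC, matched in Prdx1 at the same place and in Txnrd1 at 92 bases before the second start, against 10.2% of all promoters, a share that does not allow for the 3 windows searched in Txnrd1. These letters overlap with the AP-1 site wherever both match, and the Srxn1 window held 0 matches to this core as written. The Srxn1 match TGAGTCAGC has G where this core has C, and a core with G at that base was not searched. The Txnip window held a carbohydrate response element, a pair of CACGAG boxes (any base in place of the A was allowed) set 5 bases apart, 85 bases before the start, which 15 of the 32851 promoters (0.0457%) held. The windows of Txn1, Prdx2, Prdx3, Prdx4 and Prdx5, and those at the other two starts of Txnrd1, held none of these motifs. The motifs were chosen after the fold changes were known, and a match describes letters, not binding.

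Levels are given in FPKM, a fragment count divided by the length of the transcript and by sequencing depth, in the form the authors deposited, with all transcripts of a symbol summed. The files carry no read counts, so the depth in reads is unknown, and 3 libraries a group limit the precision. Summed FPKM lay between 375467 and 380757 in M libraries and between 380087 and 390581 in control libraries. Libraries of a group had Pearson's r of 0.990 to 0.993 over the tested genes, and libraries of different groups 0.961 to 0.968. Of 10 macrophage markers 9 were tested, with 5 called higher in M and 0 lower, beside 21.2% and 21.9% of all tested genes. Csf1r, Cd68, Mrc1 and Spi1 were not called. The summed level of the list was 7578 to 7866 FPKM in M and 5848 to 6268 FPKM in control libraries. Most of this sum was Lyz2, at 6069 FPKM in M and 4610 FPKM in control on average. The difference in markers moved with the results below and its part in them was not tested. Mertk, a further macrophage marker, was listed at 0.127 FPKM in M and 0.128 FPKM in control. Of 31 markers of other cell types 30 averaged under 1 FPKM over both groups, and the epithelial ones (Epcam, Cdh1, Krt8, Krt18) were listed at 0 in every library. Among these 30, the dendritic cell marker Siglech averaged 1.20 FPKM in control and 0.172 FPKM in M. The summed fibroblast, T cell, B cell and endothelial lists each reached at most 0.273 FPKM in M and 0.408 FPKM in control libraries. The neutrophil list summed to 0.541 to 0.870 FPKM in M and 0 to 0.191 FPKM in control, and the dendritic cell list to 1.59 to 2.05 FPKM in M and 2.56 to 3.44 FPKM in control.

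Most enzymes of the cytosolic cycle rose in M macrophages, while the mitochondrial Prdx3, the endoplasmic reticulum's Prdx4 and the cytosolic Prdx2 did not pass the test. Only Prdx3 stood for mitochondria alone and only Prdx4 for the endoplasmic reticulum. Of the mitochondrial genes outside the 10 described below, Txn2 was called higher and Txnrd2 was not called. Of the 10 genes, 7 were called higher and 0 lower in M by limma at an adjusted p under 0.05, where 43.1% of all tested genes were called, 21.2% higher and 21.9% lower. Srxn1, Txnrd1 and Prdx1 were called with a log2 fold change of at least 1, a size that 1.33% of tested genes reached among those higher in M. The groups did not overlap in 7 of the 10 genes, all higher in M, against 55.7% of tested genes in either direction and 27.6% higher in M. The median log2 fold change of the 10 genes was 0.35, beside -0.0057 over all tested genes. In bulk RNA a change in the number of expressing cells and in the RNA per cell cannot be told apart.

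**Figure D1:**
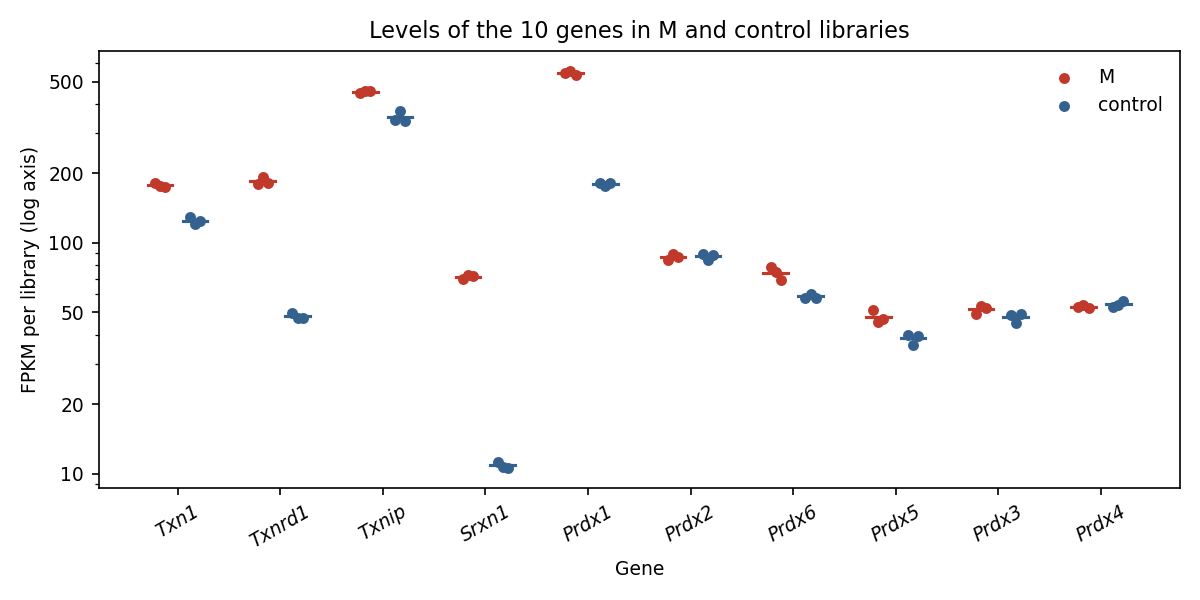
FPKM of each of the 10 genes in every library (log axis), M in red and control in blue, with bars at the group means of 3 libraries. Srxn1, Txnrd1 and Prdx1 stand furthest apart between groups, and the points of Prdx2, Prdx3 and Prdx4 overlap.

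Txn1 (ENSMUSG00000028367) encodes cytosolic thioredoxin, the small dithiol protein that passes electrons to peroxiredoxins, ribonucleotide reductase and methionine sulfoxide reductases. It was measured at 182, 177 and 175 FPKM in M 1 to 3 and at 129, 120.4 and 125 FPKM in control 1 to 3. The M libraries were all above the control libraries. The log2 fold change (M minus control on the log2(FPKM + 1) scale) was 0.51 ± 0.0408 SE, with a limma adjusted p of 5.23e-05.

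Txnrd1 (ENSMUSG00000020250), the cytosolic selenoprotein that reduces thioredoxin with NADPH, had a higher fold change than its substrate. It had 181, 193 and 182 FPKM in M 1 to 3 and 49.9, 47.2 and 47.5 FPKM in control 1 to 3, a 3.84-fold ratio of means. Its log2 fold change was 1.92 ± 0.0419 SE (limma adjusted p = 1.20e-07), and 30 of the tested genes had a higher one. The FPKM ratio of reductase to thioredoxin was 1.04 ± 0.0476 in M and 0.387 ± 0.00558 in control (SD, n = 3 each), and the libraries of the groups did not overlap in it.

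Txnip (ENSMUSG00000038393) encodes the arrestin-fold protein that binds reduced thioredoxin and blocks it, and that also restrains glucose uptake. This inhibitor rose together with the enzymes, to 446, 453 and 455 FPKM in M 1 to 3, against 339, 372 and 338 FPKM in control 1 to 3. No M library fell within the control range. The log2 fold change was 0.37 ± 0.0501 SE (limma adjusted p = 0.000754). Set against thioredoxin, the FPKM ratio of Txnip to Txn1 was 2.54 ± 0.0719 in M and 2.81 ± 0.248 in control (SD, n = 3 each). In this ratio the M libraries were all below the control libraries.

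Srxn1 (ENSMUSG00000032802), the sulfiredoxin that reverses overoxidation of peroxiredoxins such as Prdx1, had the highest fold change of the 10. Its level was 69.6, 72.5 and 72.0 FPKM in M 1 to 3 and 11.3, 10.7 and 10.6 FPKM in control 1 to 3. Every M library was above every control library, at a 6.56-fold ratio of means. The log2 fold change of 2.61 ± 0.0409 SE (limma adjusted p = 1.49e-08) was exceeded by 12 of the tested genes. With a pseudocount of 5 it was 2.27. In control libraries Srxn1 was the lowest of the 10 genes, and in M its range of 69.6 to 72.5 FPKM lay within the 69.3 to 78.6 FPKM of Prdx6.

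Among the peroxiredoxins, Prdx1 (ENSMUSG00000028691), the cytosolic and nuclear form that sulfiredoxin can repair, was the most abundant of the 10 mRNAs in M and the second in control. It had 545, 558 and 531 FPKM in M 1 to 3 and 183, 177 and 182 FPKM in control 1 to 3. The log2 fold change was 1.59 ± 0.0406 SE (limma adjusted p = 1.94e-07), and 48 tested genes had a higher one. Prdx2 (ENSMUSG00000005161), its cytosolic relative that is best known from red blood cells, had 84.4, 89.5 and 87.3 FPKM in M 1 to 3 and 89.5, 84.7 and 88.8 FPKM in control 1 to 3. These libraries overlapped fully, and the log2 fold change was -0.0094 with a 95% interval of -0.10 to 0.084 (limma adjusted p = 0.869).

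Prdx6 (ENSMUSG00000026701), a cytosolic peroxidase with a single reactive cysteine that reduces phospholipid hydroperoxides and also has phospholipase activity, rose. It had 78.6, 74.5 and 69.3 FPKM in M 1 to 3 and 57.8, 60.4 and 57.9 FPKM in control 1 to 3, with no overlap. Its log2 fold change was 0.33 ± 0.0511 SE (limma adjusted p = 0.00146). Prdx6b, a near copy of Prdx6 that could share its reads, was listed at 0 FPKM over all libraries.

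Prdx5 (ENSMUSG00000024953), the peroxidase shared by mitochondria, peroxisomes and the cytosol, also rose. It had 51.3, 45.5 and 46.6 FPKM in M 1 to 3 and 39.9, 36.2 and 39.6 FPKM in control 1 to 3. The libraries did not overlap, and the log2 fold change was 0.30 ± 0.0587 SE (limma adjusted p = 0.00443). The call did not hold when its most abundant transcript was used in place of the sum (log2 fold change 0.25, adjusted p = 0.103).

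Prdx3 (ENSMUSG00000024997), the peroxiredoxin of the mitochondrial matrix, had 49.2, 53.2 and 52.2 FPKM in M 1 to 3 and 48.7, 45.1 and 49.3 FPKM in control 1 to 3. The lowest M library fell within the control range. Its log2 fold change was 0.11 with a 95% interval of -0.00385 to 0.22 (limma adjusted p = 0.107). Prdx4 (ENSMUSG00000025289), which uses peroxide from disulfide formation in the endoplasmic reticulum, had 52.6, 53.7 and 52.3 FPKM in M 1 to 3 and 52.9, 53.8 and 56.2 FPKM in control 1 to 3. The ranges overlapped, and the log2 fold change was -0.038 with a 95% interval of -0.13 to 0.049 (limma adjusted p = 0.444).

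**Figure D2:**
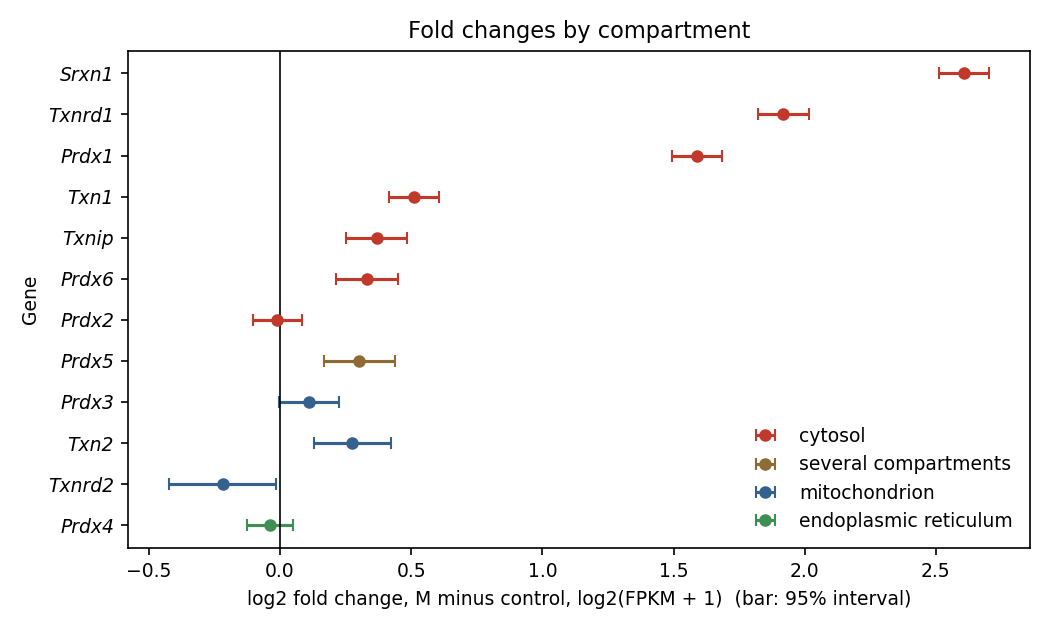
Log2 fold change (M minus control, log2(FPKM + 1)) with 95% intervals from limma for the 10 genes and for the mitochondrial Txn2 and Txnrd2, coloured by compartment. Srxn1, Txnrd1 and Prdx1 lie above 1, and the intervals of Prdx2, Prdx3 and Prdx4 include 0.

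**Figure D3:**
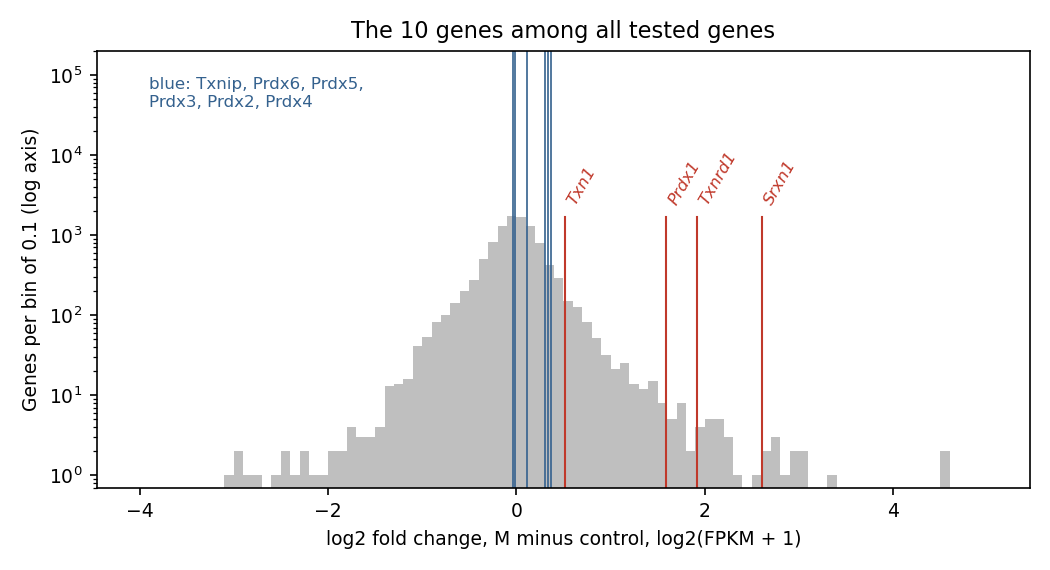
Histogram of the log2 fold changes of all 10390 tested genes (log count axis), with red lines at Srxn1, Txnrd1, Prdx1 and Txn1 and blue lines at the other members. Srxn1, with 12 genes above it, Txnrd1, with 30, and Prdx1, with 48, lie in the right tail, and the blue lines lie between -0.038 and 0.37.

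The order of the levels differed between the groups. In M it ran from Prdx1 (531 to 558 FPKM) and Txnip (446 to 455 FPKM) to Txnrd1 (181 to 193 FPKM) and Txn1 (175 to 182 FPKM), whose ranges met. Prdx2 (84.4 to 89.5 FPKM) followed, then Prdx6 and Srxn1, which overlapped. Prdx3 (49.2 to 53.2 FPKM) overlapped both with Prdx4 (52.3 to 53.7 FPKM) and with Prdx5 (45.5 to 51.3 FPKM). In control the order was Txnip (338 to 372 FPKM), Prdx1 (177 to 183 FPKM), Txn1 (120.4 to 129 FPKM), Prdx2, Prdx6 and Prdx4, each range clear of the next. Txnrd1 (47.2 to 49.9 FPKM) and Prdx3 (45.1 to 49.3 FPKM) overlapped below them, and Prdx5 (36.2 to 39.9 FPKM) and Srxn1 (10.6 to 11.3 FPKM) came last.

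Prdx1 made up most of the peroxiredoxin mRNA in M. The FPKM of Prdx1 to Prdx6 summed to 861, 874 and 839 in M 1 to 3 and to 471, 457 and 474 in control 1 to 3. Without Prdx1 the sum was 313 ± 5.01 FPKM in M and 287 ± 6.08 FPKM in control (SD, n = 3 each). Prdx1 held 63.3%, 63.8% and 63.3% of the sum in M 1 to 3 and 38.7%, 38.7% and 38.4% in control 1 to 3. The share of the mitochondrial Prdx3 was 6.01% ± 0.262 in M and 10.2% ± 0.285 in control, and that of the endoplasmic reticulum's Prdx4 was 6.16% ± 0.0670 in M and 11.6% ± 0.348 in control (SD, n = 3 each). Prdx2 held 10.2% ± 0.314 in M and 18.8% ± 0.228 in control. Since shares add to a whole, the lower shares of Prdx2, Prdx3 and Prdx4 go with the higher one of Prdx1 and do not by themselves show a lower level.

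**Figure D4:**
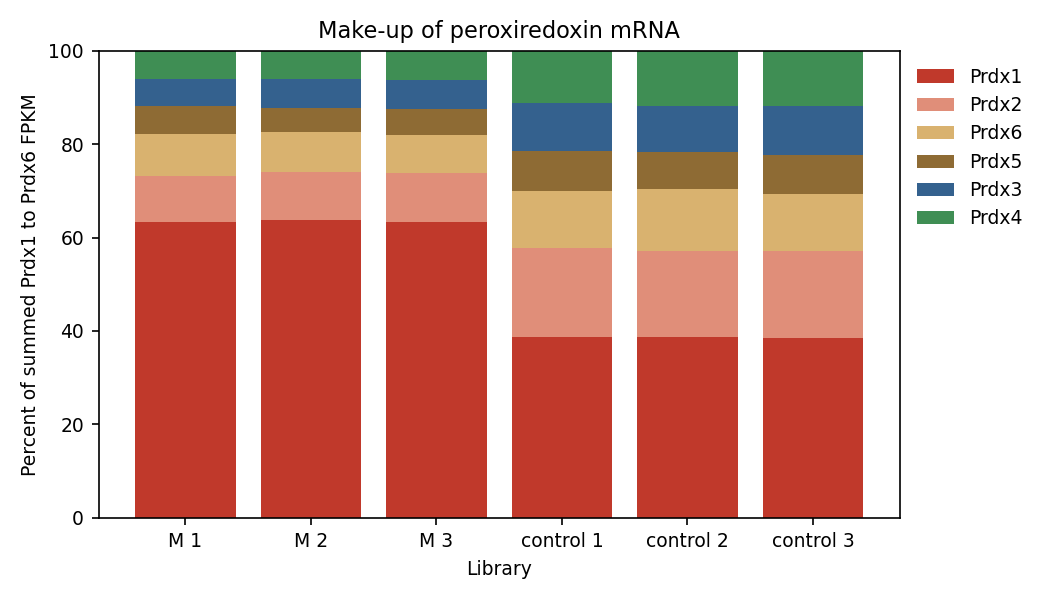
Share of each peroxiredoxin in the summed FPKM of Prdx1 to Prdx6 for every library, M libraries on the left. Prdx1 fills 63.3% to 63.8% of each M bar and 38.4% to 38.7% of each control bar.

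Genes of different compartments, and of the cytosol alone, were compared as log2 ratios of 2 genes per library, in 8 pairs. An exact permutation test of 3 libraries against 3, two-sided, was used. This exact test cannot go below p = 0.1, so it could not call any pair at 0.05. Every pair gave an exact p = 0.1 (0.1 after Benjamini-Hochberg adjustment over the 8 pairs), since in each the M and control libraries did not overlap. The log2 ratio of Prdx1 to Prdx3 was 3.38 ± 0.061 in M and 1.90 ± 0.042 in control, a difference of 1.48. That of Prdx1 to Prdx4 was 3.34 ± 0.018 in M and 1.71 ± 0.047 in control, a difference of 1.63 (SD, n = 3 each, here and for the pairs that follow). Within the cytosol, the ratio of Prdx1 to Prdx2 was 2.63 ± 0.043 in M and 1.03 ± 0.017 in control, a difference of 1.60. This lies between 1.48 and 1.63, so the Prdx1 pairs mostly restate the change of Prdx1 and do not set compartments apart. The differences for Prdx1 over Prdx5 and over Prdx6 were 1.29 and 1.26. Between the organelles, the ratio of Prdx4 to Prdx3 was 0.036 ± 0.049 in M and 0.18 ± 0.066 in control, a difference of -0.15.

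The mitochondrial counterparts of Txn1 and Txnrd1 were measured alongside. Txnrd2, the mitochondrial thioredoxin reductase, had 8.40, 9.57 and 10.1 FPKM in M 1 to 3 and 11.4, 11.95 and 9.83 FPKM in control 1 to 3. One control library lay among the M libraries, and the log2 fold change was -0.22 ± 0.088 SE (limma adjusted p = 0.0804, and 0.0317 without control 3). The log2 ratio of Txnrd1 to Txnrd2 was 4.17 ± 0.12 in M and 2.03 ± 0.13 in control, a difference of 2.14 (SD, n = 3 each). Txn2, the mitochondrial thioredoxin, rose to 29.3 ± 2.38 FPKM in M, against 24.0 ± 0.826 FPKM in control (SD, n = 3 each; log2 fold change 0.28 ± 0.063 SE, limma adjusted p = 0.00915). The ratio of Txn1 to Txn2 differed by 0.23 on the log2 scale (0.16 without M 1), beside the 2.14 of the reductases.

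Single transcripts of the 10 genes were examined because the sums could hide opposite movements. Of 23 listed transcripts, 20 averaged at least 1 FPKM and were tested, with 9 called higher and 0 lower in M, where 18.7% of all tested transcripts were called and 9.18% were called higher. Txn1, Txnrd1, Srxn1 and Prdx3 each had 1 transcript in the table. The main Prdx1 transcript (ENSMUST00000135573) held 93.4% of the gene's FPKM in M and 94.1% in control, at 508 ± 17.1 FPKM in M and 170 ± 2.65 FPKM in control (SD, n = 3 each). The minor Prdx1 transcripts ENSMUST00000129315 (18.8 ± 2.72 FPKM in M, 4.63 ± 0.552 in control) and ENSMUST00000030454 (10.1 ± 2.11 FPKM in M, 2.94 ± 1.13 in control) were also called higher, with limma adjusted p of 0.00101 and 0.0130, the second call being lost without M 2 (0.0531). The remaining Prdx1 transcripts, ENSMUST00000151129 and ENSMUST00000106470, were not called (limma adjusted p = 0.0639 and 0.287).

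Both Txnip transcripts rose. ENSMUST00000074519 had 146, 161 and 158 FPKM in M 1 to 3 and 108, 107 and 107 FPKM in control 1 to 3 (log2 fold change 0.52 ± 0.0437 SE, limma adjusted p = 0.00148). ENSMUST00000049093, the more abundant one, had 300.4, 292 and 297 FPKM in M 1 to 3 and 232, 265 and 230.3 FPKM in control 1 to 3 (log2 fold change 0.29 ± 0.0624 SE, limma adjusted p = 0.0290). Its call was lost without any one of 5 of the 6 libraries (adjusted p = 0.0847 to 0.0919) and with no filter (0.0506).

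Prdx2 showed a shift between transcripts that did not follow the groups. ENSMUST00000164807 had 11.4, 2.06 and 3.18 FPKM in M 1 to 3 and 2.72, 11.6 and 17.1 FPKM in control 1 to 3. The main transcript ENSMUST00000005292 ran the other way, at 66.1, 80.6 and 77.1 FPKM in M 1 to 3 and 79.2, 66.4 and 63.9 FPKM in control 1 to 3. M 1, control 2 and control 3 thus had the most of the minor and the least of the main form, while the sum stayed between 84.4 and 89.5 FPKM in every library.

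**Figure D5:**
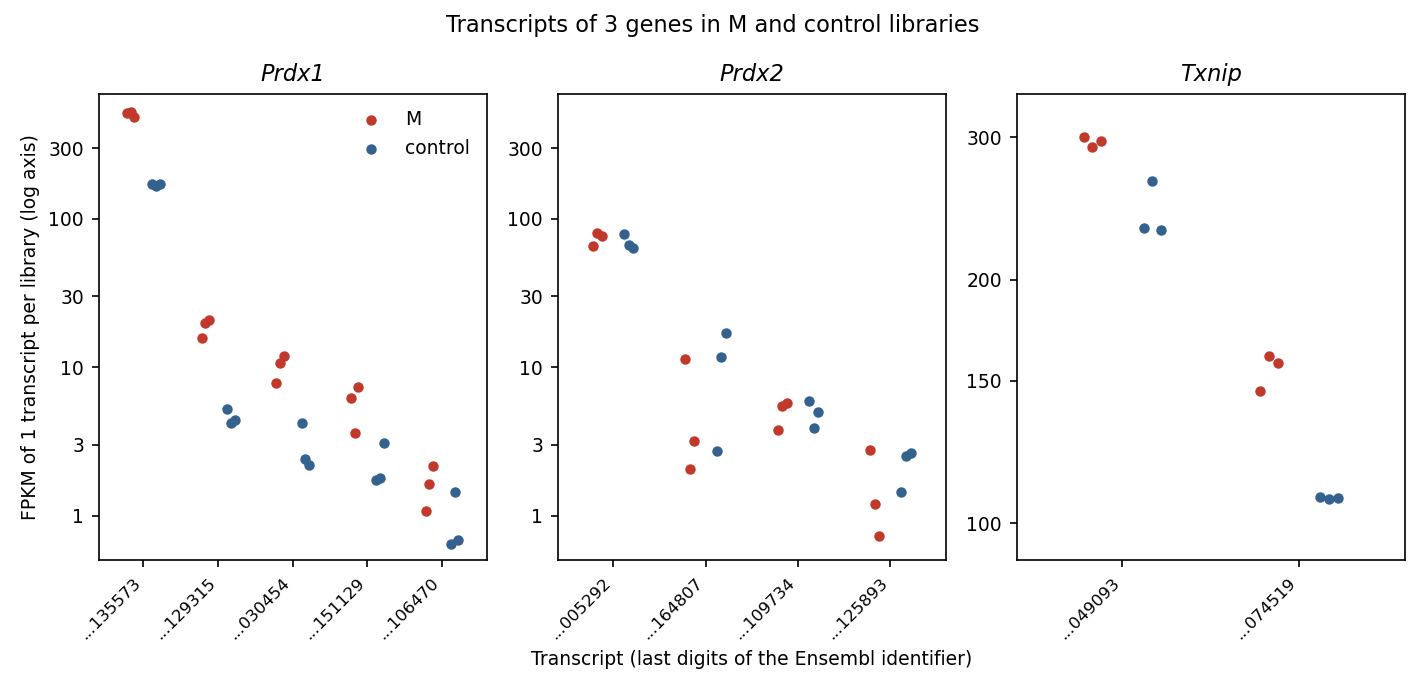
FPKM of single transcripts averaging at least 1 FPKM in every library (log axes, on a scale of its own for Txnip), for Prdx1, Prdx2 and Txnip, M in red and control in blue. All Prdx1 transcripts shown but the least abundant, and both Txnip transcripts, are higher in all M libraries than in any control library. The least abundant Prdx1 transcript and the Prdx2 transcripts overlap between the groups.

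Related genes of the same chemistry were called in both directions, at close to the shares of all tested genes. Of 54 listed genes 44 were tested, and 11 were called higher and 10 lower in M, beside 21.2% and 21.9% of all tested genes, with a median log2 fold change of -0.013. Without M 2 the number lower was 6. The same 21.2% and 21.9% are the background for the counts per list that follow. In the 7 tested cytosolic thioredoxin-fold genes 1 was higher and 0 lower, namely Glrx (glutaredoxin 1, which removes glutathione from protein cysteines), at 28.4 ± 1.22 FPKM in M and 17.3 ± 1.26 FPKM in control (SD, n = 3 each; limma adjusted p = 7.77e-05). Without M 1 there were 2 higher, and without control 2 there was 1 lower. Of the 5 mitochondrial genes 1 was higher (Txn2) and 1 lower, the methionine sulfoxide reductase Msrb2 at 3.47 ± 0.234 FPKM in M and 4.80 ± 0.532 FPKM in control (SD, n = 3 each; limma adjusted p = 0.00965). Without control 3 there were 2 higher and 2 lower.

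Thiol oxidation in the endoplasmic reticulum, which produces the peroxide that Prdx4 consumes, was represented by 18 tested genes, of which 4 were higher and 4 lower (median log2 fold change -0.030). The number lower was 2 without control 3, M 2 or M 3 and 6 with quantile normalization. The oxidase Ero1l, which makes that peroxide while it reoxidises protein disulfide isomerase, rose to 45.6, 49.6 and 50.8 FPKM in M 1 to 3, against 25.98, 29.8 and 28.9 FPKM in control 1 to 3. Its log2 fold change was 0.77 ± 0.063 SE (limma adjusted p = 6.06e-05), beside -0.038 for Prdx4. The disulfide isomerase Pdia6 was the lowest called gene of this list, at 66.2 ± 3.83 FPKM in M and 80.4 ± 3.66 FPKM in control (SD, n = 3 each; log2 fold change -0.28).

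Among 8 tested genes of a list of electron acceptors and partners of thioredoxin, to which the sestrins had been added, 3 were higher and 3 lower. Ribonucleotide reductase needs reduced thioredoxin or glutaredoxin to make deoxynucleotides, and its subunits Rrm2 and Rrm1 fell. Rrm2 had 21.4, 22.2 and 20.4 FPKM in M 1 to 3 and 46.4, 47.7 and 48.9 FPKM in control 1 to 3 (log2 fold change -1.13 ± 0.0442 SE, limma adjusted p = 2.17e-06). Rrm1 averaged 27.7 ± 0.852 FPKM in M and 49.0 ± 1.47 FPKM in control (SD, n = 3 each; log2 fold change -0.80). The alternative small subunit Rrm2b, named after its values were seen, was higher, at 10.1 ± 0.483 FPKM in M and 7.23 ± 0.504 FPKM in control (SD, n = 3 each; log2 fold change 0.43, limma adjusted p = 0.00134). The sestrins, stress-inducible regulators of growth signalling, went opposite ways. Sesn2 was at 21.5 ± 1.33 FPKM in M and 15.1 ± 0.222 FPKM in control (log2 fold change 0.49, limma adjusted p = 0.000237), and Sesn1 at 14.5 ± 1.45 FPKM in M and 27.2 ± 0.951 FPKM in control (log2 fold change -0.87, limma adjusted p = 6.06e-05; SD, n = 3 each).

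Of 6 tested arrestin-fold relatives of Txnip and their regulators, 2 were higher and 2 lower. Arrdc3, an adaptor in receptor trafficking, had 6.15, 6.78 and 7.99 FPKM in M 1 to 3 and 3.26, 3.29 and 2.69 FPKM in control 1 to 3 (log2 fold change 0.96 ± 0.10 SE, limma adjusted p = 0.000218). Arrdc4, which like Txnip is a known target of the glucose-sensing factor MondoA, was also higher, at 8.26 ± 0.401 FPKM in M and 5.48 ± 0.973 FPKM in control (SD, n = 3 each; log2 fold change 0.52, limma adjusted p = 0.00489). Mlxip, the gene of MondoA itself, was called lower (log2 fold change -0.13, limma adjusted p = 0.0467). Mlxip lost this call on leaving out any single library except control 3. The call was also lost with no filter, with median-of-ratios or quantile scaling and with a replicate block. Arrdc4 and Mlxip were named after their values were seen. Arrdc2 was lower (log2 fold change -0.24, limma adjusted p = 0.0200), a call lost without control 1 (0.0666), control 2 (0.0532) or M 2 (0.0687). The number of these relatives called lower was 0 without any of those libraries and 1 without M 1 or M 3. It was also 1 with no filter, with a filter at 5 FPKM, and with median-of-ratios or quantile scaling.

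Genes closest to Srxn1, Txnrd1 and Txnip were sought among 8355 genes averaging at least 5 FPKM. The measure was the Euclidean distance over the 6 libraries of log2(FPKM + 1) minus the control mean. It mostly picks genes of like fold change. Those nearest to Srxn1 had log2 fold changes of 2.58 to 2.70, and those nearest to Txnrd1 of 2.01 to 2.05. Shared regulation was not tested. Nearest to Srxn1 were Blvrb (biliverdin reductase B; distance 0.15), Ptgir (the prostacyclin receptor; 0.18) and Hmox1 (haem oxygenase 1; 0.18). Nearest to Txnrd1 were Me1 (cytosolic malic enzyme; 0.20), Ninj1 (a plasma membrane rupture protein; 0.23) and Cat (catalase, the peroxisomal peroxide-removing enzyme; 0.26). Nearest to Txnip were Braf (a kinase of the MAP kinase cascade; 0.049), Dmxl2 (0.059) and Camk1d (a calmodulin-dependent kinase; 0.065), at small distances that go with its small fold change.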

How the data were processed

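RNA of 3 M and 3 control libraries of mouse macrophages had been prepared with Trizol and a TruSeq RNA kit, per the labels' protocols. The authors deposited FPKM per transcript, and the submitters' processing notes name mm9 as the build. Aligner, quantifier, annotation release, filters and strandedness are not stated there, so reads of overlapping or antisense genes, or of processed copies of Txn1 and Prdx1, may be shared. Gapdh, of which many copies exist, was listed at 13.1 FPKM on average.

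Transcripts of a symbol were summed, genes averaging at least 1 FPKM were kept, and log2(FPKM + 1) was fitted on group with limma 3.58.1 in R 4.3.3 (eBayes with trend and robust), two-sided, Benjamini-Hochberg adjusted over all 10390 genes. Fold changes on this scale understate low genes. Transcripts were fitted likewise. The script was tested on simulated data. Low FPKM values of single-transcript genes were searched for steps of whole reads, but 3.45% to 7.10% of them shared the most frequent ratio to control 1, so no counts were recovered.

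The members and lists were chosen with earlier results of these data known. Related genes were named if they were in a tested pair, were the highest or lowest called of their list, or were called with an absolute log2 fold change of at least 0.58. The alternatives were other pseudocounts, filters and scalings, leaving out each library, a replicate block and the most abundant transcript. The lncRNA table was not used. Ratios used scipy 1.17.1.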

Additional observations from a re-analysis of the deposited data

How the results depend on the processing

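Across the alternatives the count of members called higher in M was 6 to 7 and of those called lower 0. The exception to 7 was the use of the most abundant transcript of each gene, where Prdx5 was no longer called (log2 fold change 0.25, adjusted p = 0.103) and Prdx2 changed sign to 0.095 (adjusted p = 0.552). The uncalled Prdx2 also changed sign when single libraries were left out (log2 fold change from -0.034 to 0.013). The related genes called lower in M numbered 6 to 9 when single libraries were left out, 6 of them without M 2, against 10 with all libraries. With the most abundant transcripts the Prdx1 share was 63.8% in M and 39.5% in control, Prdx2 9.36% in M and 16.2% in control, Prdx3 6.47% in M and 11.1% in control, Prdx4 6.64% in M and 12.6% in control, and Prdx5 4.79% in M and 7.46% in control, since minor transcripts are left out of the sums. The uncalled Prdx2 transcript ENSMUST00000109734 ranged from -0.11 to 0.17 on leaving out single libraries (-0.045 without M 2, -0.071 without M 3), against 0.019 with all libraries. The cause of these changes beyond the construction of each alternative was not tested.

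Libraries of the same replicate number did not deviate together (r = 0.0664, 0.0052 and -0.0347 for numbers 1 to 3), and M 2 and M 3 correlated best with another number, so the numbers were not taken as pairs. With a replicate block 2104 genes were called higher and 2196 lower, and 7 and 0 of the 10 members. The block left 7 of the members' transcripts called higher, against 9 without it: ENSMUST00000049093 of Txnip (adjusted p = 0.0925) and ENSMUST00000030454 of Prdx1 (0.0808) were no longer called by limma. Under the block 2 endoplasmic reticulum genes and 1 arrestin-fold relative were called lower, and 2 mitochondrial genes higher. With a filter at 5 FPKM 0 mitochondrial genes were called lower, since Msrb2 was not tested. No scaling moved the median log2 fold change of all genes by over 0.1.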
